A study of Mus musculus with 24 samples.

Results

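The oxidative phosphorylation subunit genes encode the 4 complexes of the mitochondrial respiratory chain, cytochrome c and the ATP synthase. They were chosen by name alone among protein-coding genes: names starting with Ndufa, Ndufb, Ndufc, Ndufs or Ndufv, with Uqcr, with Cox4 to Cox8, with Atp5, or with mt-Nd, mt-Co, mt-Cytb or mt-Atp, and the genes Sdha, Sdhb, Sdhc, Sdhd, Cyc1 and Cycs. This rule found 105 of the 45237 genes of the count table, 95 of them on nuclear chromosomes and 10 on mitochondrial DNA. By name it also takes 9 assembly or coupling factors (8 genes named Ndufaf, and Atp5s) and Cox7a2l, which can help to join complexes III and IV into larger assemblies. Whether it does so in the mouse strain used here was not examined.

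Complex I passes electrons from NADH, and complex II from succinate, to ubiquinone. Complex III hands them to cytochrome c, complex IV to oxygen, and the proton gradient built on the way drives ATP synthase, also called complex V. Most subunits are made from nuclear genes and imported, while mitochondrial DNA encodes a core set of complexes I, III, IV and V, so that each of these is built from both genomes. Resting NK cells rely largely on oxidative phosphorylation, and cytokine-stimulated NK cells are known to raise both glycolysis and respiration.

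RNA was sequenced from NK cells sorted from the spleens of wild-type C57BL/6J mice. The study's methods give young adult female mice as the general rule and do not repeat age and sex for these libraries. Mice were injected into the tail vein with RMA cells, a T lymphoma line, or with RMA-KR cells, and control mice carried no tumor. RMA-KR is a clone of RMA in which B2m was knocked out and Rae1-β, a ligand of the activating receptor NKG2D, was added by a lentivirus, so its values come from 1 clone. Both lines carry ZsGreen, and lines with only 1 of these changes were not analysed here. The groups were Control (4 libraries), RMA early and RMA-KR early (day 2, 3 libraries each), RMA intermediate (day 4, 3 libraries), RMA-KR intermediate (day 7, 5 libraries), RMA late (day 9, 3 libraries) and RMA-KR late (day 14, 3 libraries). Tumor and day differ together at the intermediate and late stages and cannot be told apart there. The labels do not say whether each library comes from 1 mouse. A figure legend of the study gives 3 mice for each of the control and late groups, while Control has 4 libraries here. The p-values reflect the spread between these libraries, part of which may be technical.

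Total counts per library ran from 5138651 in Control 1 to 14863500 in RMA-KR late 2, with a median of 10489204. Levels are CPM scaled to the library size with TMM factors (normalized CPM). Differences are log2 fold changes from edgeR's quasi-likelihood test, with the adjusted p of Benjamini and Hochberg over the 17097 genes that passed a filter on low counts, and a gene is called with an adjusted p under 0.05. Of the 105 members, 97 passed the filter and were tested, 89 nuclear and 8 mitochondrial.

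The sort took cells positive for NKp46 or NK1.1, whose antibodies carried the same dye. It left out cells with CD3, CD5 or T cell receptors, among other markers. Ncr1, which encodes NKp46, measured 1625 to 4040 normalized CPM and Klrb1c, which encodes NK1.1, 1304 to 2544 over the 24 libraries. The 10 NK cell markers summed to between 16717 and 33351, with the highest mean normalized CPM, 9982, in Gzma, a granzyme. Of these 10, Eomes was called lower in RMA late at a log2 fold change of -0.75. Of the T cell markers, which RMA cells may also express, Cd3e reached at most 5.00 and was at 0 in 12 libraries. Cd5 reached 23.5 in RMA early 2, was at most 1.2 in every other library and was at 0 in 12.

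The other marker lists hold no gene that was at 0 in every library. The gene named with each list has its highest mean normalized CPM, not corrected for length. The 11 genes for T cells and RMA (Trbc1, 286, a constant region that NK cells also transcribe) summed to 395, 344, 394 and 417 in the controls, to 337, 309 and 290 in RMA intermediate, each below every control, to 604, 505 and 468 in RMA late and to 507, 419 and 426 in RMA-KR late. The 8 B cell genes (Ighm, 336) summed to 284, 335, 238 and 419 in the controls, to 392, 335 and 336 in RMA late and to 489, 602 and 429 in RMA-KR late, while 4 plasma cell genes summed to at most 20.2 with Jchain at 2.55. The 7 granulocyte genes (Ngp, 0.53) summed to at most 17.2, the 6 red cell genes (Alas2, 0.546) to at most 3.7, and the 4 platelet genes (Itga2b, 3.63) to between 0.0882 and 30.4, with at most 2.7 in the controls, 7.87, 30.4 and 19.4 in RMA early, 13.5, 17.5 and 16.3 in RMA-KR early and 6.62, 5.68 and 12.4 in RMA late. The 9 macrophage and monocyte genes (Cd68, 22.3) summed to 18.5, 15.4, 8.74 and 12.4 in the controls, to 31.0, 29.2 and 31.4 in RMA-KR early, to 36.5, 34.0 and 51.0 in RMA late and to 80.1, 70.4 and 36.2 in RMA-KR late. Every library of both late groups was above every control on the T cell and macrophage lists, as was every RMA-KR late library on the B cell list and every RMA late library on the platelet list. At day 2, every library of both early groups was above every control on the platelet list, and every RMA-KR early library on the macrophage list. The T cell list summed to 314, 457 and 327 in RMA early and to 366, 562 and 570 in RMA-KR early. RMA early 2, RMA-KR early 2 and RMA-KR early 3 were above every control on it. In RMA-KR intermediate it summed to 376, 434, 463, 484 and 445. The part of any of these cells in the results was not tested.

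Among the 24 libraries, those of RMA-KR intermediate fell into unlike sets. The NK marker sum was 29166 and 31591 in libraries 1 and 2, and 17991, 17528 and 16717 in libraries 3, 4 and 5. The 85 genes of the cytosolic ribosome summed to 6847 and 6382 in the former and to 10461, 10608 and 11370 in the latter. The labels give no reason for this, so the comparison of this group is given below for all 5 libraries and for each set alone.

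Levels between genes can be compared only per length, taken here as all annotated exons of a gene together, whichever of them the cells use. Per kb of exon, the highest member in control NK cells was mt-Co1, a catalytic subunit of complex IV, at 2952 normalized CPM per kb. The next were mt-Nd1 at 1895 and mt-Cytb at 1402, followed by mt-Nd5 at 543 and mt-Nd4 at 333. This order leaves out mt-Co3 and mt-Atp6, and sequence shared with nuclear copies, given below, makes the places of mt-Co1 and mt-Nd4 uncertain. The highest nuclear members were the α and β subunits of ATP synthase, Atp5a1 at 291 and Atp5b at 285 per kb, then Cox8a at 213, Cox4i1 at 153 and Sdha at 151. The lowest of the tested members were Cox6b2, known from testis, at 0.221 per kb, Atp5g2 at 0.652 and Atp5g1 at 0.816. Of the 50-base stretches of Atp5g2 and Atp5g1, 38.3% and 11.1% also occur in other genes, so their places are uncertain too. Atp5g1, Atp5g2 and Atp5g3 encode the same mature ring protein of ATP synthase. Cycs, which encodes cytochrome c, stood at 2.64 per kb, and 26.1% of its 50-base stretches also occur in another gene, so its level is uncertain.

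Of the 8 untested members, 6 are tissue isoforms with few counts: Cox4i2, Cox7a1, Cox7b2, Cox8b, Cox8c and Ndufa4l2 had at most 15 counts in any library, and each was at 0 in at least 11 of the 24. The heart and muscle isoform Cox6a2 did pass the filter, at 3.03 per kb in the controls. The other untested members are mt-Co3 and mt-Atp6, with 1 count in 1 library each and 0 in the other 23. Their sequences are shared with nuclear copies: 99.9% of the 50-base stretches of mt-Co3 also occur in Gm28437, and 99.5% of those of mt-Atp6 in Gm10925, and the reads had 50 bases. The first 50 bases of mt-Co3 (MT:8607-8656, plus strand, mm10) are shown because they also lie in Gm28437, beside those of mt-Nd1 (MT:2751-2800, plus strand, mm10), which occur in no other gene.
mt-Co3: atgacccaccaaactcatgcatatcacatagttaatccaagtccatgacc
mt-Nd1: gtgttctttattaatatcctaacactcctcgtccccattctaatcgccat
The counts of mt-Nd3 (98.0% shared), mt-Nd4 (62.2%) and mt-Co1 (51.1%) are uncertain for the same reason, whereas mt-Nd2 (8.2%) and mt-Nd5 (7.6%) share little and mt-Nd1, mt-Cytb and mt-Nd6 share none. The genes mt-Co2, mt-Nd4l and mt-Atp8 are not analysed here.

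The 95 nuclear members together measured 7363, 9821, 9157 and 8377 normalized CPM in the 4 control libraries (8679 ± 1060, SD, n = 4). At day 2 the sums were 8137, 8906 and 8361 in RMA early (8468 ± 395, n = 3) and 7703, 8942 and 8696 in RMA-KR early (8447 ± 656, n = 3), inside the control range. At day 4 they were 12277, 11481 and 11704 in RMA intermediate (11821 ± 410, n = 3), each above the highest control. RMA late stayed above the controls, with 13386, 13909 and 10487 (12594 ± 1840, n = 3). RMA-KR intermediate gave 9659, 9646, 9881, 9290 and 10222 (9740 ± 343, n = 5), and RMA-KR late 10347, 10928 and 8411 (9895 ± 1320, n = 3). Both RMA-KR groups overlapped the controls, and RMA late 3 and RMA-KR late 3 were the lowest of their groups. In bulk RNA, fewer cells of a type and less RNA per cell cannot be told apart.

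The 10 mitochondrial members did not follow the same order. They summed to 11444, 9709, 9531 and 8515 in the controls (9800 ± 1220, n = 4), to 10033, 10041 and 9302 in RMA intermediate (9792 ± 425, n = 3) and to 12808, 12303 and 8516 in RMA late (11209 ± 2350, n = 3). At day 2 the sums were 9627, 9400 and 9490 in RMA early (9505 ± 114, n = 3) and 8593, 11708 and 10195 in RMA-KR early (10165 ± 1560, n = 3), and at day 7 they were 13049, 10693, 9017, 9192 and 9479 in RMA-KR intermediate (10286 ± 1680, n = 5). Each of these groups overlapped the controls. The ratio of the mitochondrial to the nuclear sum was 1.55, 0.989, 1.04 and 1.02 in the controls (1.15 ± 0.27, n = 4). It was 0.817, 0.875 and 0.795 in RMA intermediate and 0.957, 0.885 and 0.812 in RMA late (0.884 ± 0.0724, n = 3). The libraries of RMA intermediate and RMA late were below every control, and Control 1, the shallowest library, stood well above the other controls. In RMA-KR intermediate the ratio was 1.35, 1.11, 0.912, 0.989 and 0.927, with libraries 3 and 5 also below every control. At day 2 it was 1.18, 1.06 and 1.14 in RMA early and 1.12, 1.31 and 1.17 in RMA-KR early. In RMA-KR late the mitochondrial sum was 12948, 9937 and 16535 (13140 ± 3300, n = 3) and the ratio 1.25, 0.909 and 1.97 (1.38 ± 0.539, n = 3). The spread between those 3 libraries covered the control range of the ratio, and no test was run on these sums.

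**Figure D1:**
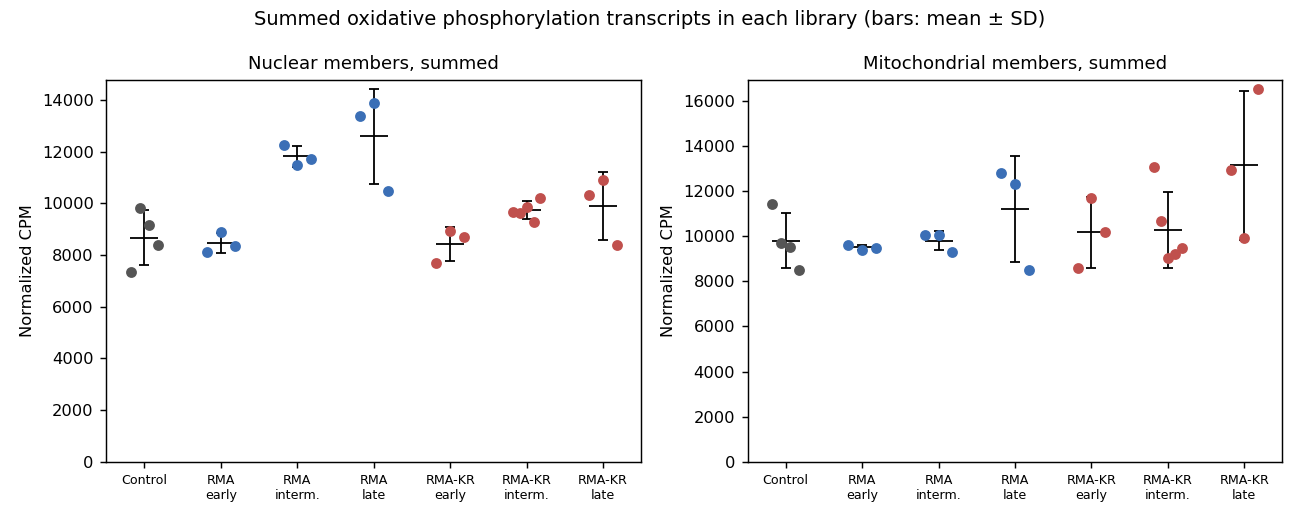
Summed normalized CPM of the 95 nuclear members and of the 10 mitochondrial members, 1 point per library, by group with mean and SD. The nuclear sums of RMA intermediate and RMA late lie above every control, while the mitochondrial sums of those groups overlap the controls.

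Whether the subunit genes had changed 2 days after injection was asked for each tumor against Control. In RMA early, edgeR called 0 of the 97 tested members, against 0% of the tested genes. At an unadjusted p under 0.05 there were 3 members, all lower, beside 7.04% of the tested genes, and DESeq2 called 1, against 0.152%. The 89 nuclear members had a median log2 fold change of -0.08 (quartiles -0.22 and 0.08), the 8 mitochondrial members one of -0.01, and all tested genes one of -0.06. The smallest p belonged to Ndufaf7, a methyltransferase needed for complex I assembly. It measured 45.3, 41.0, 52.0 and 43.4 in the controls and 13.1, 14.7 and 8.2 in RMA early, so that the groups did not overlap. Its log2 fold change was -1.92 ± 0.34 (SE), and its adjusted p of 0.07686 missed the threshold. Leaving out RMA early 3 gave 1 member called, and leaving out any other library gave 0. The next were Ndufs7 at -0.56 and Ndufaf8 at -0.93, not called either.

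In RMA-KR early, edgeR again called 0 members, against 0.0994% of the tested genes, with 8 members at an unadjusted p under 0.05 (5 higher, 3 lower), beside 8.71% of the tested genes, and 1 called by DESeq2, against 1.03%. The nuclear median was -0.07 (quartiles -0.25 and 0.12), the mitochondrial median -0.29 and that of all tested genes 0. None of the 3 members with the smallest p was called: Uqcrc1 had a log2 fold change of 0.54, mt-Cytb of 0.57 and Atp5b of -0.48. Atp5b, the catalytic β subunit of ATP synthase, measured 997, 1373, 1292 and 1168 in the controls and 927, 807 and 869 in RMA-KR early. mt-Cytb, the cytochrome b of complex III, measured 1482, 1709, 1431 and 1792 in the controls and 1862, 2794 and 2500 in RMA-KR early. The former lay below and the latter above every control, with an adjusted p of 0.316 each from edgeR's test. Also below every control in each library were mt-Nd2 at -0.51, mt-Nd5 at -0.47 and mt-Nd6 at -0.45, none of them called. The values of mt-Co1, mt-Nd1, mt-Nd3 and mt-Nd4 overlapped the controls.

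At day 2 the tumors can be compared at the same time. RMA early against RMA-KR early gave 1 member called, Ndufaf7, against 0.339% of the tested genes. Ndufaf7 measured 13.1, 14.7 and 8.2 in RMA early and 68.2, 62.7 and 71.1 in RMA-KR early, the former all below and the latter all above the controls. Its log2 fold change was -2.48 ± 0.36 (edgeR adjusted p 0.007955) and stayed called without any 1 of the 6 libraries. With only these groups in the model it was not called (adjusted p 0.2355, the highest of a range that started at 3.135e-08 over the alternatives). The next members by p were not called: Ndufaf8, another complex I assembly factor, at -1.49 (adjusted p 0.1156) and Atp5b at 0.56 (0.1506).

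At day 4, RMA intermediate against Control gave 3 members called higher, against 2.35% of the tested genes in either direction and 1.85% higher, and 0 lower. All 3 belong to ATP synthase. At an unadjusted p under 0.05, 34 members were higher and 0 lower, beside 15.9% of the tested genes in either direction, and DESeq2 called 14, against 4.99%. In 42 members every RMA intermediate library was above every control, against 10.2% of the tested genes, and in 4 (Atp5l, Atp5s, Cox7c and mt-Nd4) every library was below, against 10.5%. Atp5l ran from 0 to 341 counts over all libraries and Atp5s from 0 to 563, with an SE of 1.52 and 0.91 here. Of the 50-base stretches of Cox7c, 22.1% also occur in other genes. The values of these members, and of mt-Nd4 for its shared sequence, are therefore uncertain. Over the 89 nuclear members the median was 0.42 (quartiles 0.19 and 0.65), with 78 of 89 above 0, and the mitochondrial median -0.07, with 2 of 8 above 0, while the median of all tested genes was -0.29.

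Atp5g3 encodes the c subunit that forms the rotating ring of ATP synthase (ENSMUSG00000018770, chr2:73908447-73911326, mm10). It measured 75, 61.4, 66.8 and 60.7 in the controls (66.0 ± 6.61, n = 4) and 139, 127 and 130 in RMA intermediate (132 ± 6.43, n = 3). The groups were far apart, and the log2 fold change was 1.00 ± 0.17 (edgeR adjusted p 0.002318). Atp5b measured 997, 1373, 1292 and 1168 in the controls (1207 ± 163, n = 4) and 1934, 2128 and 1919 in RMA intermediate (1994 ± 116, n = 3). Every RMA intermediate library was above every control, at a log2 fold change of 0.72 ± 0.15 (edgeR adjusted p 0.007748). Atp5o, a subunit of the stalk that holds the catalytic head in place, measured 31.6, 43.2, 45.3 and 43.9 in the controls (41.0 ± 6.33, n = 4) and 71.5, 77.0 and 82.6 in RMA intermediate (77.1 ± 5.55, n = 3). Its groups did not overlap either, at a log2 fold change of 0.91 ± 0.21 (edgeR adjusted p 0.02087). Since 41.6% of its 50-base stretches also occur in other genes, D430001F17Rik and Gm15976 among them, its level is uncertain.

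The count of 3 depended on single libraries. Without Control 2 it was 7 and without RMA intermediate 2 it was 1. The call of Atp5b was lost without RMA intermediate 2 (adjusted p 0.05317). That of Atp5o was lost without Control 1 (0.0873), Control 4 (0.05696), RMA intermediate 2 (0.08159) or RMA intermediate 3 (0.119), while Atp5g3 was called without any 1 library. With no filter on low counts, where 564 of all genes were called (401 in the main fit), the call of Atp5b stayed, and those of Atp5g3 (0.09347) and Atp5o (0.3463) were lost. Next after these 3 came Cox5a at 0.98 and Sdhd at 0.83, both with an edgeR adjusted p of 0.05557 and not called.

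By complex, the 17 nuclear members of ATP synthase had a median log2 fold change of 0.63 in RMA intermediate, and 3 of them were called. The 14 tested nuclear members of complex IV had a median of 0.53, the 9 of complex III 0.45, the 4 of complex II 0.42 and the 44 of complex I 0.34, with 0 called in each of these by edgeR. At an unadjusted p under 0.05 there were 8 members in complex IV, 4 in III, 2 in II and 10 in I, and DESeq2 called 3, 0, 1 and 3 of them. The 9 assembly or coupling factors had a median of 0.14 and the 79 tested nuclear subunits without such factors one of 0.44.

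In RMA late, at day 9, 17 members were called higher (17.5% of the 97), against 2.66% of the tested genes in either direction and 2.14% higher, and 0 lower. DESeq2 called 33, against 5.91% of the tested genes. At an unadjusted p under 0.05, 51 members were higher and 1 lower, beside 14% of the tested genes in either direction. In 39 members every RMA late library was above every control, against 9.24% of the tested genes, and in 1 (Atp5l) every library was below, against 8.81%. The log2 fold change of Atp5l was -1.87 with an SE of 1.54, so its value is uncertain. The nuclear median was 0.61 (quartiles 0.35 and 0.83), with 81 of 89 above 0, the mitochondrial median -0.13, with 3 of 8 above 0, and the median of all tested genes -0.18.

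The 17 members came from every complex, 4 from complex I, 2 from complex II, 3 from complex III, 3 from complex IV and 5 from ATP synthase. The called members of complex I were Ndufa13 at 0.99 ± 0.23 (edgeR adjusted p 0.02043), Ndufb8 at 0.86, Ndufa8 at 0.75 and Ndufa9 at 0.69. Each is an accessory subunit rather than a carrier of a redox centre. For Ndufa13, 28.5% of the 50-base stretches also occur in other genes, Tssk6 among them, so its level is uncertain. The 44 nuclear members of complex I had a median of 0.61.

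Complex II has 4 subunits, all nuclear, and takes part in the TCA cycle as succinate dehydrogenase. Sdhd (ENSMUSG00000000171, chr9:50596357-50603812, mm10), one of its membrane anchors, measured 61.0, 154, 118 and 125 in the controls (115 ± 39.1, n = 4) and 255, 267 and 223 in RMA late (248 ± 22.5, n = 3). The groups did not overlap, and Control 1 was the lowest library. The log2 fold change was 1.11 ± 0.23 (edgeR adjusted p 0.007213). Sdhb, the iron-sulfur subunit, measured 147, 238, 228 and 185 in the controls and 429, 407 and 266 in RMA late, all above the controls, at 0.88 ± 0.20 (edgeR adjusted p 0.01479). Sdha, the flavoprotein that oxidizes succinate, measured 615, 600, 736 and 533 in the controls (621 ± 84.7, n = 4) and 570, 551 and 486 in RMA late. Its groups overlapped, and its log2 fold change of -0.21 was not called.

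In complex III, Uqcr10, a small subunit, had the highest log2 fold change of the called members, 1.28 ± 0.31 (edgeR adjusted p 0.0241). It measured 12.2, 23.0, 20.9 and 21.2 in the controls and 49.4, 63.2 and 28.8 in RMA late. RMA late 3 was close to the controls. Uqcrc1, a core protein of the matrix side, measured 309, 440, 422 and 413 in the controls and 730, 675 and 501 in RMA late. Again RMA late 3 was the lowest of its group but above the controls, with a log2 fold change of 0.68 ± 0.17 (edgeR adjusted p 0.02383). Uqcrq was called at 0.95, and the 9 nuclear members had a median of 0.61.

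In complex IV, Cox4i1, the isoform of subunit 4 found in most tissues, measured 224, 224, 238 and 265 in the controls (238 ± 19.5, n = 4) and 427, 425 and 347 in RMA late (400 ± 45.3, n = 3). Its control libraries were close together and all RMA late libraries were above them, at a log2 fold change of 0.75 ± 0.15 (edgeR adjusted p 0.00639). Cox6a1 measured 66.2, 135, 88.3 and 107 in the controls and 212, 210 and 128 in RMA late. It was called at 0.89 ± 0.21 (edgeR adjusted p 0.01928) although its groups overlapped, since Control 2 was above RMA late 3. Cox6b1 was called at 0.91, and the median of the 14 tested nuclear members was 0.77.

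In ATP synthase, Atp5o measured 102, 98.8 and 68.2 in RMA late (89.6 ± 18.6, n = 3) beside the control values above. All were above the controls, at a log2 fold change of 1.13 ± 0.21 (edgeR adjusted p 0.004007). Atp5g3 measured 112, 143 and 100 (119 ± 22.2, n = 3) and Atp5b 1812, 2014 and 1656 (1827 ± 180, n = 3). Neither overlapped the controls, with log2 fold changes of 0.85 ± 0.17 and 0.60 ± 0.15 (edgeR adjusted p 0.006819 and 0.02643). Atp5j was called at 0.92 and Atp5c1, the γ subunit of the rotor, at 0.69 ± 0.15 (edgeR adjusted p 0.01139). The 17 nuclear members had a median of 0.60.

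By role, 4 of the 18 core nuclear subunits were called (median 0.48) and 13 of the 58 tested other nuclear subunits (median 0.70). Of the 9 assembly or coupling factors edgeR called 0 (median 0.34), with 0 at an unadjusted p under 0.05 and 0 by DESeq2. Of the 8 tested mitochondrial members edgeR and DESeq2 called 0, with 2 at an unadjusted p under 0.05, and their log2 fold changes ran from -0.50 to 0.50. The highest was mt-Cytb, which measured 2956, 2467 and 1398 in RMA late, so that the first pair was above every control and RMA late 3 below all of them.

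Other named nuclear subunits were not called in RMA late. In complex I, Ndufab1 had a log2 fold change of 0.33, and in complex II, Sdhc one of 0.34. Ndufs1, which carries iron-sulfur centres, had a log2 fold change of 0.28 in RMA late, and Ndufv1, which binds NADH, of 0.51. In complex III, Uqcrfs1 stood at 0.61 (edgeR adjusted p 0.05193), Cyc1, the cytochrome c1, at 0.45 and Uqcrc2 at 0.42. Cycs, outside the complexes, was at -0.21. In complex IV, Cox7a2 was at 0.93, Cox5a at 0.85, Ndufa4 at 0.80, Cox6c at 0.70, Cox5b at 0.57, Cox7a2l at 0.54 and Cox8a at 0.28. Cox5a, which joins Cox4i1 early in assembly, measured 25.9, 45.9, 28.2 and 28.5 in the controls, 64.7, 58.8 and 66.2 in RMA intermediate and 65.9, 66.7 and 40.8 in RMA late. Its RMA intermediate libraries were all above the controls, and RMA late 3 lay below Control 2. Atp5a1, the partner of Atp5b in the catalytic head, had a log2 fold change of 0.43 in RMA intermediate (edgeR adjusted p 0.0895) and of 0.29 in RMA late.

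The genes for the ring of ATP synthase differed in measured level. Per kb, Atp5g3 stood at 30.3 normalized CPM in the controls, above Atp5g1 at 0.816 and Atp5g2 at 0.652. Of the 50-base stretches of Atp5g1, 11.1% also occur in other genes, against 0.0% for Atp5g3. Atp5g1 had only 19 to 107 counts, divided by an exon length of 4912 bases, so the size of this gap is uncertain. Atp5g1 measured 3.51, 3.86, 5.27 and 3.39 in the controls, 6.97, 6.87 and 5.62 in RMA intermediate and 8.60, 9.12 and 5.46 in RMA late. It was above every control in both groups, at log2 fold changes of 0.69 ± 0.57 and 0.94 ± 0.57 that were not called. Atp5g2, of which 38.3% of the 50-base stretches are shared, had -0.03 and -0.05 with an SE of 1.12 each.

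Each mitochondrial member can also be followed by itself. mt-Co1 measured 6369, 4254, 4392 and 3225 in the controls, 4912, 4330 and 4206 in RMA intermediate, 5553, 5366 and 4360 in RMA late and 6433, 3388 and 7248 in RMA-KR late. The controls alone spanned most of these values. mt-Nd1 measured 2580, 2724 and 1448 in RMA late and 2078, 2707 and 3561 in RMA-KR late, the latter above every control at a log2 fold change of 0.62 that was not called (edgeR adjusted p 0.1643). mt-Nd2 measured 216, 283, 287 and 229 in the controls and 194, 219 and 127 in RMA late, at -0.50, with overlapping groups. mt-Nd4 was at -0.27, -0.08 and 0.34 in RMA intermediate, RMA late and RMA-KR late, mt-Nd6 at -0.24, -0.25 and 0.20, and mt-Nd3 at -0.09, -0.25 and -0.98. For mt-Nd4 and mt-Nd3 the shared sequence makes these values uncertain. RMA late 3 had the lowest value of its group for each of mt-Nd1, mt-Nd2, mt-Nd3, mt-Nd4, mt-Nd5, mt-Nd6, mt-Co1 and mt-Cytb, and RMA-KR late 3 the highest of its group for each of them but mt-Nd3.

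The number of members called in RMA late rested on single libraries, although the sign of the median did not. It was 5 without Control 1, 20 without Control 2, 12 without Control 3, 6 without Control 4, 3 without RMA late 1, 1 without RMA late 2 and 28 without RMA late 3. The nuclear median over these was 0.52 to 0.80. The numbers of all genes called in these fits are not given, so the share over all genes cannot be set beside these counts. Per library, the median over the nuclear members relative to the control mean was 0.75, 0.81 and 0.31 in RMA late 1, 2 and 3, and -0.30, 0.22, 0.12 and -0.01 in Control 1 to 4. Atp5o was called without any 1 library. With no filter on low counts the number was 5, while that over all genes went from 455 to 574, and Atp5o (adjusted p 0.1011), Atp5g3 (0.2706) and Cox4i1 (0.0764) were among those that lost the call, while Sdhd, Sdhb, Atp5b and Uqcrc1 kept it. Sdhd lost its call without RMA late 2 (adjusted p 0.05628), Atp5g3 without RMA late 2 (0.09543), and Cox4i1 without RMA late 1 (0.05221) or RMA late 2 (0.05514). Atp5c1 lost it without Control 4 (0.05864), RMA late 1 (0.1007) or RMA late 2 (0.08104), and Ndufa13 without Control 1 (0.08434), RMA late 1 (0.1536) or RMA late 2 (0.1888). The other 11 calls were each lost without RMA late 1 (adjusted p 0.1083 to 0.2884), RMA late 2 (0.1103 to 0.2998) or Control 1 (0.06446 to 0.176). Without Control 4, all of these but that of Cox6a1 were lost (0.05101 to 0.1928). Without Control 3 those of Ndufa9, Ndufa8, Cox6a1, Uqcr10 and Uqcrq were lost (0.05041 to 0.09277), and without Control 2 that of Ndufb8 (0.06942). With the replicate block 9 members were called (289 of all genes). Uqcrc1 (adjusted p 0.05374), Ndufa13 (0.05574) and Uqcr10 (0.07752) were among those that lost the call there.

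**Figure D2:**
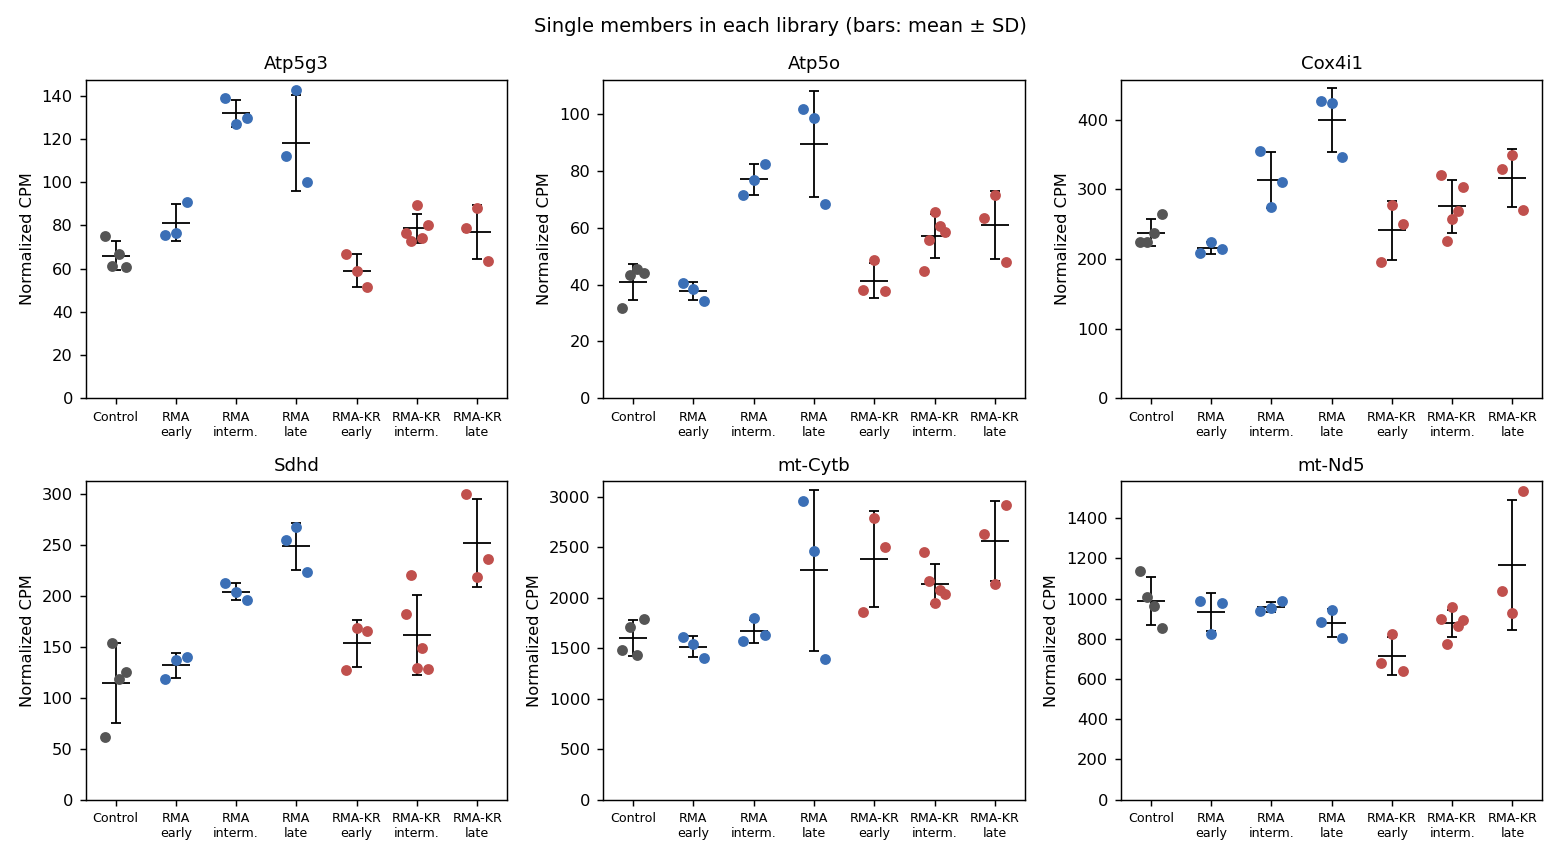
Normalized CPM of Atp5g3, Atp5o, Cox4i1, Sdhd, mt-Cytb and mt-Nd5, 1 point per library, by group. Atp5g3, Atp5o, Cox4i1 and Sdhd are above every control in RMA late, while mt-Cytb and mt-Nd5 overlap the controls there.

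RMA late was also compared with RMA early, which leaves the Control libraries out of the contrast. In this comparison 18 members were called higher (18.6% of the 97), against 2.87% of the tested genes in either direction and 2.18% higher, and 0 lower. The median of the nuclear members was 0.68 (quartiles 0.41 and 0.94), with 83 of 89 above 0, the mitochondrial median -0.06 and the median of all tested genes -0.05. Complex I gave 7 of the calls, complex II 1, complex III 3, complex IV 4 and ATP synthase 3. The comparison shares its RMA late libraries with that against Control, so the values are given side by side and their overlap is not.

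Ndufaf7 had the highest log2 fold change, 2.49 ± 0.36 (edgeR adjusted p 0.0008472). It measured 13.1, 14.7 and 8.2 in RMA early and 64.5, 71.7 and 67.0 in RMA late, above the control range of 41.0 to 52.0. Ndufc2, an accessory subunit of complex I, measured 13.5, 16 and 24.7 in RMA early and 58.1, 71.2 and 31.1 in RMA late. Its groups did not overlap, at 1.57 ± 0.34 (edgeR adjusted p 0.01505), and its control values of 25, 36.2, 30.3 and 21.5 overlapped both. Atp5o followed at 1.25 ± 0.23 (edgeR adjusted p 0.005113), from 40.4, 38.5 and 34.1 in RMA early. Uqcr11 and Uqcr10 were called at 1.25 too, and Cox4i1 at 0.89 ± 0.16 (edgeR adjusted p 0.004779), from 209, 225 and 214. The lowest of the called members were Uqcrfs1, the Rieske iron-sulfur protein, at 0.72, Ndufa9 at 0.77, Atp5c1 at 0.84 and Cox6a1 at 0.87.

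The count was 4 without RMA early 1, 11 without RMA early 2, 3 without RMA late 1, 4 without RMA late 2 and 33 without RMA late 3, and 13 without RMA early 3. With only these groups in the model it was 0, with 1 of all genes called (491 in the main fit), and DESeq2 called 34 with all libraries, against 7.1% of the tested genes. With no filter it was 5, with 613 of all genes, and Atp5o lost its call (0.06976). Ndufaf7, Atp5o and Cox4i1 were called without any 1 library. With these groups alone Ndufaf7 had an adjusted p of 0.06363, Atp5o of 0.1506 and Cox4i1 of 0.1058. Atp5c1 lost its call without RMA late 1 (0.05931), and Ndufc2 without RMA early 1 (0.08939), RMA late 1 (0.07645) or RMA late 2 (0.1126). Uqcr10, Uqcr11, Uqcrfs1, Ndufa9 and Cox6a1 each lost theirs without RMA early 1 (0.121 to 0.1621), RMA late 1 (0.1398 to 0.187) or RMA late 2 (0.1056 to 0.2737). Without RMA early 2 all of these but Cox6a1 lost it (0.05889 to 0.08834), and without RMA early 3 Uqcr10 (0.08886) and Cox6a1 (0.07612). Over all genes, 372 were called higher and 119 lower with TMM and 295 higher and 168 lower with DESeq2's size factors. With these size factors 12 members were called, and Cox6a1 (adjusted p 0.05112) and Uqcr10 (0.06242) were among those that lost the call. The replicate block also gave 12 (375 of all genes), and Uqcr11 (adjusted p 0.05891) and Uqcr10 (0.08706) were among those lost there.

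In RMA-KR intermediate, at day 7, edgeR called 0 members, against 0.0175% of the tested genes. There were 8 members at an unadjusted p under 0.05, all higher, beside 5.91% of the tested genes, and DESeq2 called 1, against 0.398%. The nuclear median was 0.17 (quartiles -0.03 and 0.27), with 64 of 89 above 0, the mitochondrial median -0.14 and the median of all tested genes 0.01. The 3 members with the smallest p were Ndufa10 at 0.48, Uqcrc1 at 0.43 and Ndufa9 at 0.45, none of them called. Libraries 1 and 2 alone gave 0 members called by edgeR, with 0 of all genes, and a nuclear median of 0.11. Libraries 3, 4 and 5 alone gave 0 members called, with 118 of all genes (35 higher and 83 lower), and a nuclear median of 0.16. The mitochondrial member mt-Nd1, a membrane subunit of complex I, measured 3685 in library 1 and 2207, 2432, 2151 and 2310 in the others, beside 1584, 1858, 1958 and 1852 in the controls.

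In RMA-KR late, at day 14, 2 members were called higher, against 1.22% of the tested genes in either direction and 0.889% higher, and 0 lower. DESeq2 called 5, against 3.43% of the tested genes. There were 14 members higher and 2 lower at an unadjusted p under 0.05, beside 14.2% of the tested genes in either direction, and in 14 every library was above every control, against 5.88% of the tested genes, and in 3 (Atp5g2, mt-Nd3 and Uqcrb) below, against 7.73%. Of the 50-base stretches of these 3, 38.3%, 98.0% and 25.5% also occur in other genes, so their values are uncertain. The nuclear median was 0.09 (quartiles -0.11 and 0.33), with 58 of 89 above 0, the mitochondrial median 0.28, with 6 of 8 above 0, and the median of all tested genes -0.18. Without RMA-KR late 3 the mitochondrial median was 0.02, and without RMA-KR late 2 it was 0.44.

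Sdhd measured 300, 218 and 236 in RMA-KR late (251 ± 42.9, n = 3), above every control, at a log2 fold change of 1.13 ± 0.23 (edgeR adjusted p 0.01239). Uqcrc1 measured 732, 623 and 561, also above every control, at 0.69 ± 0.17 (edgeR adjusted p 0.04013). For Sdhd, RMA late and RMA-KR late overlapped, and so did they for Uqcrc1. Sdhd lost its call without RMA-KR late 1 (adjusted p 0.0803). Uqcrc1 lost its call without Control 1 (0.137), Control 2 (0.06433), Control 3 (0.07715), Control 4 (0.08592), RMA-KR late 1 (0.1882) or RMA-KR late 2 (0.07926). The count of 2 was 1 without any 1 control or RMA-KR late 2, 0 without RMA-KR late 1 and 0 with only these groups in the model, where 148 of all genes were called (208 in the main fit). Ndufa10 at 0.61 (edgeR adjusted p 0.05637) and mt-Cytb at 0.68 (0.06761) were not called. mt-Cytb measured 2636, 2141 and 2921 (2566 ± 395, n = 3), each above every control.

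RMA-KR late against RMA-KR early gave 1 member called higher, mt-Nd5, a proton-pumping subunit of complex I, against 0.392% of the tested genes in either direction and 0.287% higher. mt-Nd5 (ENSMUSG00000064367) measured 680, 823 and 642 in RMA-KR early (715 ± 95.5, n = 3) and 1038, 930 and 1536 in RMA-KR late (1168 ± 324, n = 3). The groups did not overlap, and the controls, at 1139, 1006, 961 and 852, lay above RMA-KR early. The log2 fold change was 0.71 ± 0.16 (edgeR adjusted p 0.04857). The call was lost without RMA-KR early 1 (0.1766), RMA-KR early 2 (0.07227), RMA-KR early 3 (0.1548), RMA-KR late 1 (0.05311) or RMA-KR late 3 (0.2341), with DESeq2's size factors (0.07549) and with only these groups in the model (0.4467, with 2 of all genes called). The nuclear median was 0.15 with 59 of 89 above 0, the mitochondrial median 0.42 with 7 of 8 above 0, and the median of all tested genes -0.10. Atp5b at 0.67 (edgeR adjusted p 0.06359) and Sdhd at 0.71 (0.2273) were next and not called.

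**Figure D3:**
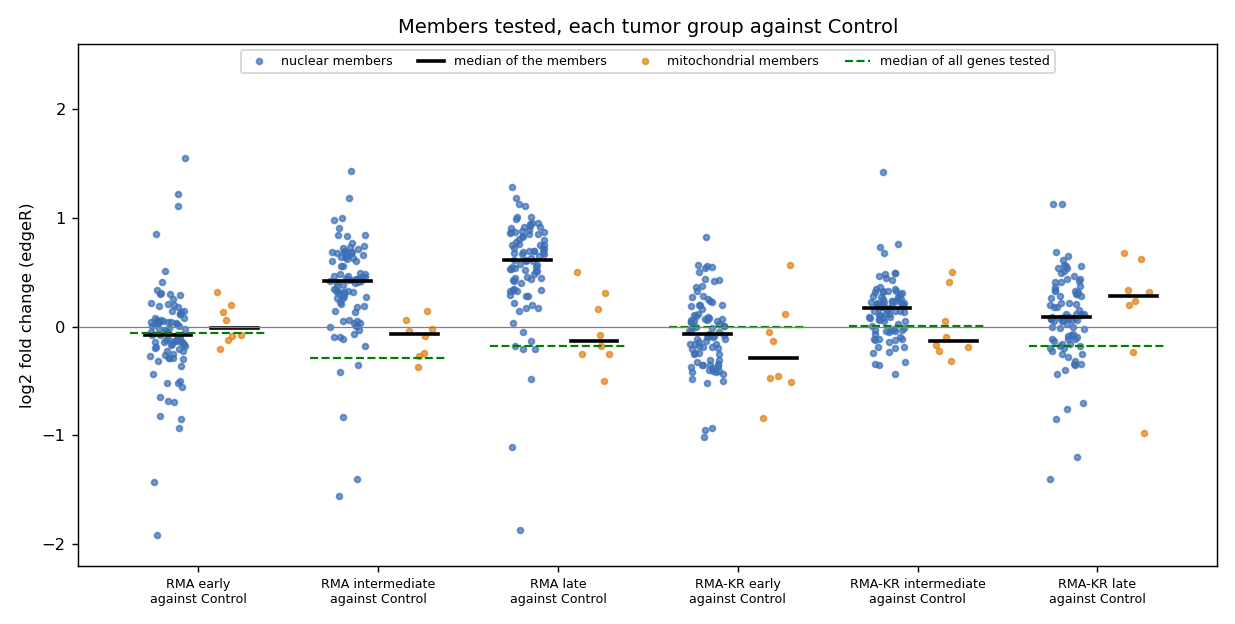
Log2 fold change of each tested member in each tumor group against Control, nuclear and mitochondrial members apart, with their medians and the median of all tested genes. The nuclear median is 0.42 in RMA intermediate and 0.61 in RMA late, against 0.17 in RMA-KR intermediate and 0.09 in RMA-KR late.

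More members were called in RMA late than in RMA-KR late, and the difference was tested directly. RMA late against RMA-KR late gave 0 members called by edgeR, against 0% of the tested genes, with 1 called by DESeq2, against 0.0936%. At an unadjusted p under 0.05 there were 35 higher and 2 lower, beside 7.31% of the tested genes in either direction. Nuclear members had a median of 0.53, with 82 of 89 above 0, the mitochondrial median -0.28, with 1 of 8 above 0, and the median of all tested genes 0.06. In 21 members every RMA late library was above every RMA-KR late library, against 5.18% of the tested genes, and in 2 (Ndufa10 and Sdha) below, against 3.95%. Cox7b, a small subunit of complex IV, measured 79.5, 98.4 and 62.9 in RMA late and 33.7, 39.4 and 30.4 in RMA-KR late, beside 28.8, 51.0, 50.6 and 45.2 in the controls. RMA late lay above both other groups, with a log2 fold change of 1.22 that was not called (edgeR adjusted p 0.655). Ndufa4 at 0.91 and Cox6b1 at 0.79 had the same adjusted p. Day 9 and day 14 differ here together with the tumor.

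The change from early to late stage was compared between the tumors in the same model. Of the 97 members edgeR called 0, against 0% of the tested genes, with 26 at an unadjusted p under 0.05 (22 higher and 4 lower in RMA), beside 10.4% of the tested genes, and 2 called by DESeq2, against 0.38%. The nuclear median of this difference was 0.54, with 78 of 89 above 0, and the mitochondrial median -0.52, with 1 of 8 above 0, while the median of all tested genes was 0.12. The smallest p was that of Ndufaf7 at 2.94 ± 0.49 (edgeR adjusted p 0.07452), then Ndufaf8 at 2.02 and mt-Nd5 at -0.79. Leaving out RMA early 3, RMA-KR early 3 or RMA-KR late 2 gave 1 member called each.

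Other genes of mitochondria and metabolism were counted from fixed lists, shown for RMA intermediate, RMA late and RMA-KR late against Control, where edgeR called 2.35%, 2.66% and 1.22% of all tested genes. At an unadjusted p under 0.05 the shares of all tested genes were 15.9%, 14% and 14.2%, and DESeq2 called 4.99%, 5.91% and 3.43%. The mitochondrial ribosome had medians of 0.32, 0.49 and 0.04. Of its 77 tested genes edgeR called 0 in RMA intermediate (10 at an unadjusted p under 0.05, 4 by DESeq2). It called 2 higher in RMA late (Mrpl20 at 1.26 and Mrpl58 at 0.67) and 1 in RMA-KR late (Mrpl10 at 0.99). The cytosolic ribosome had medians of -0.02, -0.11 and -0.42. Of its 81 tested genes, 1 was called lower in RMA intermediate (Rps27 at -2), 2 higher in RMA late (Rplp0 at 0.76 and Rps2 at 0.86), and 1 higher and 1 lower in RMA-KR late (Rplp0, and Rps13 at -1.55). In RMA-KR early its median was -0.65.

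The TCA cycle list of 18 tested genes had medians of 0.23, 0.18 and 0.15 in the same 3 comparisons. Citrate synthase, Cs, was called higher in RMA intermediate at 0.73 and Dlst lower in RMA-KR late at -0.95, and edgeR called 0 in RMA late (7 at an unadjusted p under 0.05, 1 by DESeq2). The 13 carriers and channels had medians of 0.50, 0.58 and 0.18. Slc25a5, which exchanges ADP for ATP across the inner membrane, was called at 0.96 in RMA intermediate and at 1.22 in RMA late. Its relative Slc25a4 was called at 1.47 in RMA late, and edgeR called 0 carriers in RMA-KR late (2 at an unadjusted p under 0.05, 2 by DESeq2). Glycolysis had medians of 0.78, 0.49 and 0.33. Called higher were 3 of its 20 tested genes in RMA intermediate (Ldha at 1.40, Pkm at 0.86 and Pfkp at 0.84), 5 in RMA late (Ldha at 1.57, Tpi1 at 0.89, Pkm at 0.83, Eno1 at 0.81 and Pfkp at 0.76) and 1 in RMA-KR late (Ldha at 1.11).

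The list of assembly factors, which includes the 8 Ndufaf members, had medians of 0.17, 0.23 and -0.03. Of its 50 tested genes, 1 was called, Atpif1, the inhibitor of ATP synthase, at 1.5 in RMA late. In RMA intermediate and RMA-KR late edgeR called 0, with 4 and 2 at an unadjusted p under 0.05 and 2 and 0 called by DESeq2. The 30 genes of mitochondrial DNA maintenance and expression had medians of -0.10, -0.31 and -0.42, with 0 called by edgeR in each. At an unadjusted p under 0.05 it had 3, 5 and 4 genes, and DESeq2 called 1, 2 and 1. Outside these comparisons, between RMA late and RMA early, Polg, the mitochondrial DNA polymerase, was called lower at -1.75. The rest of the lists is not given for that comparison, so this value stands for Polg alone. The 10 regulators, among them Nrf1, Gabpa and Esrra, had medians of 0.02, -0.06 and -0.13. Myc was the 1 regulator called, higher in RMA intermediate at 1.2, in RMA late at 0.84 and in RMA-KR late at 1.13.

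The 30 S and G2/M genes had medians of 3.21, 3.33 and 3.05 in the same 3 comparisons, with 28, 24 and 19 called higher. Their sum was 1863, 1624, 1744 and 1348 in the controls, 7241, 10793 and 8840 in RMA intermediate, 7811, 9676 and 5023 in RMA late, and 4808, 8219 and 4269 in RMA-KR late. The highest mean normalized CPM was that of Mcm6, 589. Every library of these groups was above every control. At day 2 the sums were 1273, 3356 and 2918 in RMA early and 1749, 1974 and 1989 in RMA-KR early, and at day 7 they were 1987, 2287, 4641, 2469 and 3694 in RMA-KR intermediate. The part of cycling cells in the values of the subunit genes was not tested.

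**Figure D4:**
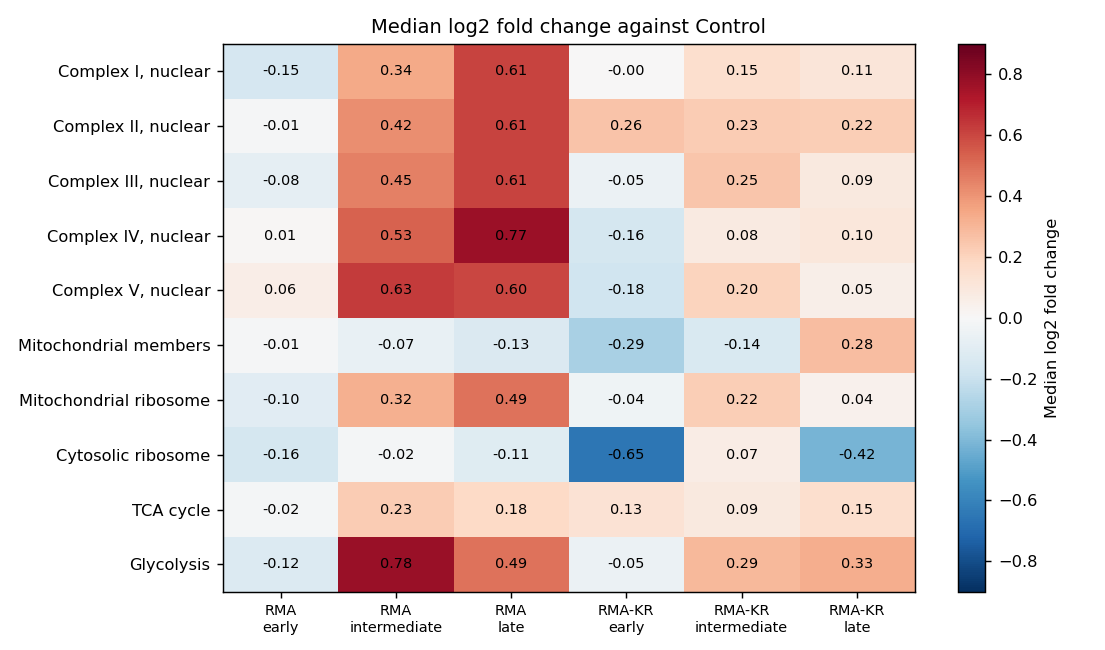
Median log2 fold change against Control for the 6 tumor groups, of the nuclear members by complex, of the mitochondrial members and of the mitochondrial ribosome, cytosolic ribosome, TCA cycle and glycolysis lists. Complex V is ATP synthase. ATP synthase has the highest median of the complexes in RMA intermediate at 0.63, and complex IV in RMA late at 0.77.

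Nuclear members are short genes. Their median exon length was 1756 bases, against 3935 for all tested genes, and 62 of the 89 fell into the shortest of 4 equal classes of length. In RMA late the medians of all tested genes by class, from short to long, were -0.06, -0.09, -0.20 and -0.34. In RMA intermediate they were -0.26, -0.19, -0.25 and -0.43. The medians of the nuclear members, 0.61 and 0.42, were above that of every class, and the part of length in them was not tested.

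Promoter sequences were read from RefSeq on GRCm38.p6, as windows around each start, where 75 of the 95 nuclear members have an entry, with 80 promoters in all. Each was searched on both strands for CGCATGCG, the core of the NRF1 motif, for CCGGAAG, that of ETS factors such as GABP, and for AAGATGGC, the YY1 motif. The NRF1 core was in 12 of the 80 (15.0%) and in 615 of all 32851 promoters (1.87%). The ETS core was in 18 (22.5%) and in 2910 (8.86%), and the YY1 motif in 10 (12.5%) and in 903 (2.75%). A match describes letters and not binding, and how the matches relate to the changes was not tested.

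The bases before the start are shown for 3 of the members called in RMA late, as 1 each from ATP synthase, complex III and complex IV, left out where they lie in an exon. Capitals mark the NRF1 core. The Atp5g3 and Uqcr10 windows hold none of the motifs, which says only that these letters are not there. The minus strand is shown, with Atp5g3 from chr2:73911327-73911576, Uqcr10 from chr11:4704345-4704594 and Cox6a1 from chr5:115348982-115349129 on GRCm38.p6. In Cox6a1 the core starts at -161 from the start, and its searched window also holds an ETS core, outside the bases shown.
Atp5g3: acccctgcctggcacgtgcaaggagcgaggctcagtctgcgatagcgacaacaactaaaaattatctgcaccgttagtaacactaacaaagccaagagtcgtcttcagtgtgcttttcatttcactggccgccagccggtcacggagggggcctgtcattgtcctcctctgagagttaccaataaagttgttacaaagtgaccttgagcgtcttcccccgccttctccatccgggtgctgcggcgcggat
Uqcr10: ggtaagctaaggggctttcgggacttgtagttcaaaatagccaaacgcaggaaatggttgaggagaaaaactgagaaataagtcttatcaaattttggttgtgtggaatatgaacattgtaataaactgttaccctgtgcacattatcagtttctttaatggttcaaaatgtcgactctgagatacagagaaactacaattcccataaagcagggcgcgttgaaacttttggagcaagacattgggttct
Cox6a1: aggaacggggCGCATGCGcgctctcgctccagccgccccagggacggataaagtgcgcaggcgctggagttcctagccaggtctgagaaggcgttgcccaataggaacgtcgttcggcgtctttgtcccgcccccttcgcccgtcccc
Genes without an entry include Atp5a1, Atp5f1, Atp5mpl, Atp5s, Cox4i1, Cox4i2, Cox6a2, Cox6c, Cox8c, Cyc1, Ndufa2, Ndufa4l2, Ndufaf6, Ndufb9, Ndufs1, Sdhc, Uqcrb, Uqcrc2 and Uqcrq.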

How the data were processed

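RNA from sorted splenic NK cells was sequenced in 24 libraries of 7 groups. The authors trimmed reads with cutadapt 1.10, removed ribosomal reads with Bowtie2 2.2.8, aligned to mm10 with STAR 2.5.3a and made the deposited counts, reads counted per gene with HTSeq 0.6.1p1, without normalization. Neither 48 further columns with other values of each library nor the authors' own DESeq2 1.16.1 comparisons were used. Depth was 5138651 to 14863500 counts per library.

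The software was edgeR 4.0.16 and DESeq2 1.42.0, run with limma 3.58.1 in R 4.3.3. A gene was kept by filterByExpr on the 7 groups (17097 of 45237, 37.8%), counts were scaled by TMM, and 1 model with a mean per group gave every comparison, by the quasi-likelihood test of edgeR (robust) and Benjamini-Hochberg adjustment. A call is an adjusted p under 0.05. SE is the log2 fold change divided by the square root of F. Medians and sums carry no test. Tested on simulated data, the procedure called few of the genes given a fold change of 2, so a gene not called may still differ. Named genes were every mitochondrial member, a panel of nuclear subunits, tissue isoforms, the 4 highest and 4 lowest called members of each comparison (where fewer than 3 were called, the 3 with the smallest p) and members with a library far from its group. Cox7b, Ndufaf8 and others outside that panel are named by the part on calls or p, and genes of the lists where called. Atp5l, Atp5s, Cox7c and Uqcrb, with every library below the controls in a comparison, were named after their values were seen. The lists (assembly factors, mitochondrial DNA maintenance and expression, regulators, TCA cycle, carriers and channels, mitochondrial and cytosolic ribosome, glycolysis, S and G2/M genes) and cell type markers were written from general knowledge. Some genes of the panel and the markers are not reported here. The members and lists were chosen with earlier results of these data known.

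The alternatives were DESeq2's size factors, scaling without genes of mitochondrial DNA, no filter, at least 10 counts in every library, DESeq2 with betaPrior=TRUE as in the study's methods, a fold change above 2, the replicate number as a block, only the groups compared, and each library left out. The sets of RMA-KR intermediate libraries alone were added after seeing the data. Precision is limited by the spread between libraries and, for members with few counts, by depth.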

Additional observations from a re-analysis of the deposited data

Results flagged for a closer look

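A sample was marked where it stood far from the rest of its group, in groups of 4 or 5 libraries. Chance marks about 1 in 20 groups, and 9 of the 106 groups examined, for 53 named members and sums, were marked. In Control 1, the shallowest library, Atp5o measured 31.6 normalized CPM (43.2 to 45.3 in the other controls) and Ndufa13 48.1 (72.1 to 73.7). The ratio of the mitochondrial to the nuclear sum was 1.55 there (0.989 to 1.04 in the other controls). In Control 2, Cox5a measured 45.9 (25.9 to 28.5 in the other controls). In RMA-KR intermediate 1, Ndufab1, the acyl carrier subunit of complex I, measured 12.4 (22.5 to 26.2 in the rest of its group) and mt-Nd1 3685 (2151 to 2432). In RMA-KR intermediate 2, Ndufa4 measured 65.7 (86.7 to 94.8) and mt-Nd6 78.1 (115 to 118). In RMA-KR intermediate 5, Atp5g1 measured 10.5 (4.65 to 5.91).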

How the results depend on the processing

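The nuclear median kept its sign in RMA intermediate (0.40 to 0.46 over other settings, 0.34 to 0.50 with 1 library left out), RMA late (0.60 to 0.64, 0.52 to 0.80), RMA-KR intermediate (0.11 to 0.18, 0.04 to 0.22) and RMA-KR late (0.07 to 0.11, 0.01 to 0.20). With 1 library left out it ran from -0.15 to 0.04 in RMA early and from -0.13 to 0.03 in RMA-KR early. The mitochondrial median ran from -0.05 to 0.08 in RMA early, -0.36 to -0.19 in RMA-KR early, -0.25 to -0.02 in RMA intermediate, -0.19 to 0.02 in RMA-KR intermediate, -0.20 to 0.04 in RMA late and 0.02 to 0.44 in RMA-KR late. In RMA intermediate it was -0.03 when scaled without genes of mitochondrial DNA, -0.14 with the replicate block and -0.03 with only the groups compared. The median of all tested genes also moved over other settings. It ran from -0.48 to -0.04 in RMA intermediate, -0.19 to -0.05 in RMA late and -0.26 to -0.01 in RMA-KR late. Without RMA late 3 it was -0.35 in RMA late. The numbers of members called were less stable, and with 1 library left out they are given without the numbers over all genes. With 1 library left out they ran from 0 to 1 in RMA early, 1 to 7 in RMA intermediate, 1 to 28 in RMA late, 0 to 2 in RMA-KR late, 3 to 33 in RMA late against RMA early, 0 to 1 in RMA-KR late against RMA-KR early and 0 to 1 for the difference between tumors in the change from early to late, and stayed at 0 in RMA-KR early, RMA-KR intermediate and RMA late against RMA-KR late and at 1 in RMA early against RMA-KR early. DESeq2 with betaPrior=TRUE called 1 in RMA early, 1 in RMA-KR early, 14 in RMA intermediate, 1 in RMA-KR intermediate, 33 in RMA late, 5 in RMA-KR late, 34 in RMA late against RMA early, 2 in RMA-KR late against RMA-KR early (431 of all genes), 1 in RMA late against RMA-KR late, 3 in RMA early against RMA-KR early (284 of all genes) and 2 for the difference in change. With no filter there were 1 in RMA early (91 of all genes), 1 in RMA-KR early (138), 1 in RMA intermediate (564), 5 in RMA late (574), 4 in RMA-KR late (458), 5 in RMA late against RMA early (613), 2 in RMA-KR late against RMA-KR early (366), 2 in RMA early against RMA-KR early (214) and 1 for the difference in change (119). With at least 10 counts in every library there were 8 in RMA intermediate (597 of all genes), 4 in RMA-KR late (300) and 1 for the difference in change (5). In that setting RMA late against RMA early gave 29 (859 of all genes), of which 28 were higher. RMA-KR late against RMA-KR early gave 2 there (161). A fold change above 2 left 1 in RMA intermediate (282 of all genes), 3 in RMA late (306) and 1 in RMA-KR late (168). It left 10 in RMA late against RMA early (344) and 0 in RMA-KR late against RMA-KR early (55). The replicate block gave 9 in RMA late (289 of all genes) and 1 in RMA-KR late (117). It gave 12 in RMA late against RMA early (375) and 0 in RMA-KR late against RMA-KR early (45). Replicate numbers do not pair the libraries: libraries of the same number in different groups had a median correlation of -0.01 (64 pairs) and of different numbers 0 (181 pairs). Only the groups compared gave 13 in RMA intermediate (1190 of all genes) and 0 in RMA-KR late (148), RMA late against RMA early (1), RMA-KR late against RMA-KR early (2) and RMA early against RMA-KR early (1). Scaling without genes of mitochondrial DNA gave 7 in RMA intermediate (449 of all genes) and 2 in RMA-KR late against RMA-KR early (75). DESeq2's size factors gave 12 in RMA late against RMA early (463) and 0 in RMA-KR late against RMA-KR early (59). The cause was not tested, other than that a fold threshold narrows the test by construction. Alternatives were run for the called members and those with the smallest p, and none of these changed direction. Called members of single comparisons stayed called in 217 of their other settings and lost the call in 77, and with 1 library left out they stayed called in 141 and lost it in 133. Those not called became called in 20 other settings and in 4 with 1 library left out. The tissue isoforms with few counts, and mt-Co3 and mt-Atp6, whose sequence is shared with nuclear copies, could not be tested.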
